A study of Mus musculus with 21 samples.

Results

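Amino-acid supply in hematopoietic stem cells (HSCs) was described through 10 genes. They are Asns for asparagine synthesis, Phgdh, Psat1 and Psph for serine synthesis, Shmt2 and Mthfd2 for mitochondrial glycine and one-carbon metabolism, and Slc3a2, Slc7a5, Slc7a1 and Slc7a11 for amino-acid transport. The genes were chosen by name with earlier results of these data known, and all 10 were found among the 47729 genes of the deposited count table. The cells were HSCs sorted from mouse bone marrow as CD150-positive cells lacking CD48 within the LSK compartment (no lineage markers, Sca-1 and Kit present), and RNA was sequenced from 21 SMART-seq2 libraries in 7 groups of 3. Of these, 4 groups form a treatment experiment. Atg5-/- mice, labelled Mx1-Cre;Atg5fl/fl, and wild-type (WT) mice were each injected retro-orbitally with the proteasome inhibitor bortezomib at 10 mg/kg or with 10% DMSO, 48 h and 24 h before analysis. Mx1-Cre is driven by an interferon-responsive promoter, so its activity is not limited to blood cells. The other 3 groups came from untreated RFP-EGFP-LC3 mice, whose HSCs were sorted by colour into RFP single positive cells, cells positive for both RFP and GFP (double positive) and cells with neither (double negative). In this reporter LC3, a protein of autophagosome membranes, carries an acid-stable red and an acid-sensitive green label. The labels give neither ages nor separate animals, so p-values measure the spread between these libraries.

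Serine is made from the glycolytic intermediate 3-phosphoglycerate in consecutive steps by Phgdh, Psat1 and Psph. Shmt2 then splits serine in mitochondria into glycine and a one-carbon unit that Mthfd2 oxidises, while Asns makes asparagine from aspartate and glutamine. Slc3a2 (CD98 heavy chain) brings light chains such as Slc7a5, which imports large neutral amino acids, and Slc7a11, which exchanges cystine for glutamate, to the plasma membrane. Slc7a1 imports arginine and lysine on its own. Most of these genes are known targets of ATF4, a transcription factor translated when the kinase-driven stress response to amino-acid shortage or misfolded protein is active, and ATF4 with C/EBP partners binds a composite element in their regulatory regions.

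Promoter windows from RefSeq (build GRCm38.p6, 250 bases before to 50 after the start) were held for 9 of the 10 genes in 11 windows. The motif TGATGNAAN, a common form of the ATF4-C/EBP element, was searched on both strands and was present in 3.95% of all 32851 windows. It was found in 2 of the 11 windows, once in Asns, 23 to 15 bases before the start, and 2 times in Slc7a11, once in each orientation. The 100 bases before the start are printed below for these 2 genes and for Phgdh and Slc3a2, 2 members of opposite response to bortezomib in Atg5-/- cells, in whose windows the motif letters did not occur. Asns lies at chr6:7693210-7693309, Slc7a11 at chr3:50443614-50443713, Phgdh at chr3:98339970-98340069 and Slc3a2 at chr19:8713898-8713997, all on the minus strand and written 5′ to 3′ along it. Capitals mark the motif. The windows of Slc3a2, Psat1 and Mthfd2 lie inside the annotated genes, whose 5′ ends are at 8723369, 15947337 and 83325908. Only the windows held were searched, so the motif was not looked for at other starts or elsewhere in these genes.
Asns: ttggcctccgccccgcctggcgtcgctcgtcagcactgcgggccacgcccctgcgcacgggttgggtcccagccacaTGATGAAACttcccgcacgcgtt
Slc7a11: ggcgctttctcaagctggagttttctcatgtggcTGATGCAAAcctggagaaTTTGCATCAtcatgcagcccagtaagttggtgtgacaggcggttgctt
Phgdh: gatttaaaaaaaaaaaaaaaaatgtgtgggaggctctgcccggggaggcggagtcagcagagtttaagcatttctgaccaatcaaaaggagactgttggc
Slc3a2: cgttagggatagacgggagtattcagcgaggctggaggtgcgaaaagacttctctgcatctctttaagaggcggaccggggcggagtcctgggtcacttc

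Libraries held 15005500 to 31481691 counts, so that 3 counts correspond to 0.0953 to 0.200 CPM (counts scaled to library size), a limit that covers counting error only. Atg5 stood at 95.2 to 142.5 CPM in the bortezomib Atg5-/- libraries, 107 to 114 CPM in DMSO Atg5-/-, 72.2 to 135 CPM in bortezomib WT and 39.9 to 74.6 CPM in DMSO WT. In DMSO the Atg5-/- libraries were all above the WT libraries, and under bortezomib the genotypes overlapped. Reads were counted over the gene as a whole, where a deleted exon is not seen apart, so the label was not checked by them and Atg5-/- is used here as a label only. The HSC genes Kit, Ly6a, Slamf1 and Procr were detected in every library. Xist made up 0 to 100% of Xist plus Ddx3y counts in the bortezomib Atg5-/- libraries, at most 0.987% in DMSO Atg5-/-, 31.9% to 90.3% in bortezomib WT and 60.0% to 99.2% in DMSO WT, so in DMSO sex and genotype cannot be told apart. Replicates numbered 3 of bortezomib Atg5-/-, bortezomib WT and DMSO WT stood apart from the other libraries on the third principal component (10.7% of the variance).

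Per kilobase of exon, Phgdh and Slc3a2 were the most abundant of the 10 in DMSO WT cells. Phgdh had 113.5 ± 2.04 CPM per kb, followed by Slc3a2 (56.6 ± 4.34), Shmt2 (56.4 ± 9.38), Psat1 (41.5 ± 8.40), Asns (22.1 ± 1.06), Psph (18.1 ± 3.42) and Slc7a5 (14.2 ± 1.86; SD, n = 3 for each). Slc3a2 and Shmt2 differed by less than their spread. Mthfd2 had 4.32 ± 0.568, Slc7a1 1.67 ± 0.292 and Slc7a11 0.0632 ± 0.0141 CPM per kb. Phgdh led in every group except bortezomib Atg5-/-, where Slc3a2 reached 105.5 ± 11.6 CPM per kb and Phgdh 60.5 ± 22.5 CPM per kb.

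Bortezomib raised Asns, Phgdh, Psat1, Mthfd2 and Slc7a5 in WT cells, whereas in Atg5-/- cells Slc3a2 rose and Phgdh and Shmt2 fell. All changes below are log2 fold changes from edgeR's quasi-likelihood test on the counts, with calls made where p, adjusted by Benjamini-Hochberg over all 16149 genes tested, was under 0.05. In WT cells 5 of the 10 genes rose under bortezomib and 0 fell, where 7.97% of all genes rose and 7.56% fell, 15.5% in either direction. Their median log2 fold change was 0.90, against -0.04 over all genes. In Atg5-/- cells 1 gene rose and 2 fell, where 2.02% of all genes rose and 1.61% fell, 3.63% in either direction, and the median was -0.49, against 0.00299 over all genes. Between genotypes under bortezomib, 1 gene was higher and 7 were lower in Atg5-/- cells, where 17.2% of all genes were higher and 15.3% lower, 32.4% in either direction. The median there was -1.27, against 0.08 over all genes. The difference between the responses of the genotypes, tested as an interaction, was called for 7 genes, 1 with a higher and 6 with a lower response in Atg5-/- cells, where 4.35% of all genes were higher and 4.71% lower, 9.05% in either direction. These comparisons share libraries and are not independent of each other. In bulk RNA, fewer cells of a type and less RNA per cell cannot be told apart.

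**Figure D1:**
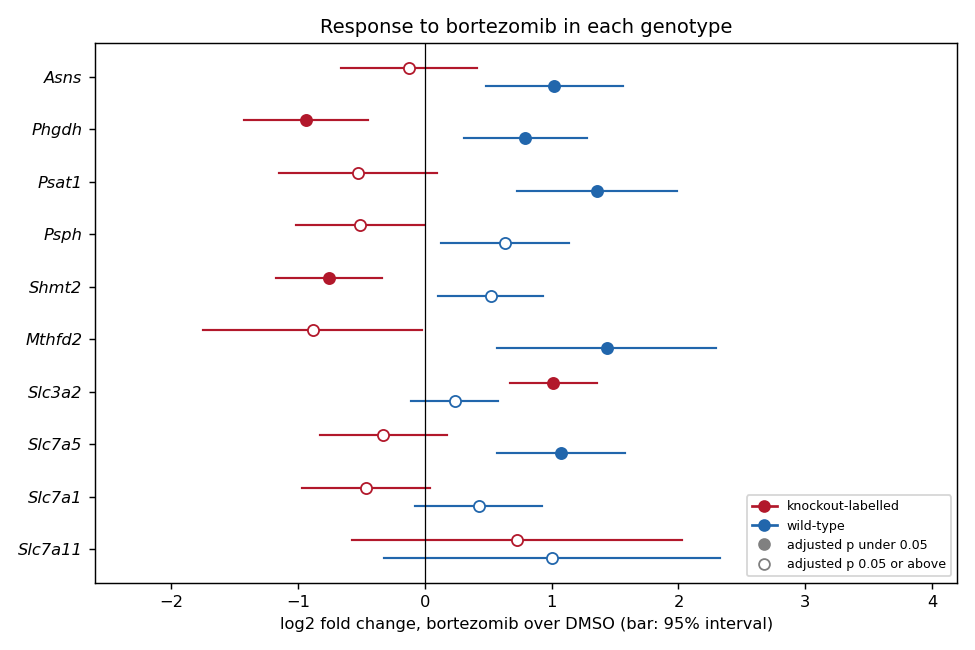
Response to bortezomib of each of the 10 genes, as log2 fold change over DMSO with its 95% interval, in Atg5-/- (knockout-labelled, red) and WT cells (blue). Filled points have an adjusted p under 0.05. All 10 WT points lie to the right of 0 and 5 of them are filled. The filled red points are Slc3a2 at 1.01, Phgdh at -0.94 and Shmt2 at -0.76.

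Asns (ENSMUSG00000029752.12, GRCm38 chromosome 6, 7675169 to 7693254, minus strand), the asparagine synthetase gene, was raised by bortezomib in WT cells. It stood at 53.1, 32.4 and 53.5 CPM in bortezomib Atg5-/- libraries, 73.8, 42.2 and 35.1 CPM in DMSO Atg5-/-, 129, 105 and 135 CPM in bortezomib WT and 58.8, 58.7 and 63.8 CPM in DMSO WT. Every bortezomib WT library lay above all 9 others, as for 12.4% of the 16149 genes tested, and the 2 Atg5-/- groups overlapped. The log2 fold change was 1.02 (SE 0.25, adjusted p = 0.0155) in WT cells and -0.12 in Atg5-/- cells (95% interval -0.66 to 0.41, adjusted p = 0.890). Under bortezomib Asns was lower in Atg5-/- than in WT cells, at 46.3 ± 12.1 against 123 ± 15.8 CPM (SD, n = 3 each; log2 fold change -1.41, SE 0.26, adjusted p = 0.000855). The interaction was -1.14 (adjusted p = 0.0560) and did not pass the threshold.

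All 3 enzymes of serine synthesis were lower in Atg5-/- than in WT cells under bortezomib. Phgdh (ENSMUSG00000053398.11, chromosome 3, 98313170 to 98339990), the first and committed enzyme, had 145, 97.5 and 209 CPM in bortezomib Atg5-/- libraries, 332, 313 and 219 CPM in DMSO Atg5-/-, 517, 432 and 517 CPM in bortezomib WT and 282, 277 and 287 CPM in DMSO WT. Bortezomib moved it in opposite directions: it fell in Atg5-/- cells (-0.94, SE 0.23, adjusted p = 0.0322) and rose in WT cells (0.79, SE 0.23, adjusted p = 0.0290), with no overlap between treated and DMSO libraries in either genotype. All treated libraries lay below all DMSO libraries for 9.73% of genes tested in Atg5-/- cells, and above them for 19.3% in WT cells. The interaction was -1.73 (SE 0.32, adjusted p = 0.00882), and it was called in all 20 alternative analyses. Under bortezomib Phgdh was 0.308 times as high in Atg5-/- as in WT cells (-1.70, adjusted p = 0.000191), the smallest p of the 10 genes in that comparison.

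Psat1 (ENSMUSG00000024640.9, chromosome 19, 15904678 to 15947337), the aminotransferase of the next step, had 103, 58.9 and 152 CPM in bortezomib Atg5-/- libraries, 179.8, 174 and 97.1 CPM in DMSO Atg5-/-, 523, 459 and 372 CPM in bortezomib WT and 161, 151 and 217 CPM in DMSO WT. The bortezomib WT libraries were the highest of the 12 and did not overlap any other group, as for 12.4% of genes tested. The 2 Atg5-/- groups overlapped. It rose in WT cells (1.36, SE 0.30, adjusted p = 0.00909), stood at -0.53 in Atg5-/- cells (95% interval -1.15 to 0.10, adjusted p = 0.400) and was lower in Atg5-/- than in WT cells under bortezomib (-2.11, SE 0.30, adjusted p = 0.000231). The interaction was -1.88 (adjusted p = 0.0155). Psph (ENSMUSG00000029446.14, chromosome 5, 129765558 to 129787449), the phosphatase that releases serine, had 39.8, 30.4 and 65.7 CPM in bortezomib Atg5-/- libraries, 61.2, 76.0 and 56.7 CPM in DMSO Atg5-/-, 117, 119.8 and 127 CPM in bortezomib WT and 74.3, 65.7 and 94.6 CPM in DMSO WT. Treated WT libraries lay above DMSO WT libraries, as for 19.3% of genes tested, and its change there of 0.63 missed the threshold (adjusted p = 0.0829). It was lower in Atg5-/- than in WT cells under bortezomib (-1.42, SE 0.24, adjusted p = 0.000579), with an interaction of -1.14 (adjusted p = 0.0453). Psph shares 452 exonic bases with Cct6a, a chaperonin subunit gene on the opposite strand, and the strand setting of the counting is not stated, so reads of the pair may be shared. Cct6a averaged 528 ± 163 CPM in bortezomib Atg5-/-, 559 ± 155 CPM in DMSO Atg5-/-, 1526 ± 115 CPM in bortezomib WT and 704 ± 71.4 CPM in DMSO WT, and its part in the Psph values was not tested.

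Both mitochondrial enzymes were lower in Atg5-/- than in WT cells under bortezomib. Shmt2 (ENSMUSG00000025403.4, chromosome 10, 127517123 to 127522444) had 132, 87.4 and 126 CPM in bortezomib Atg5-/- libraries, 225, 208 and 150.5 CPM in DMSO Atg5-/-, 251, 247 and 256 CPM in bortezomib WT and 195, 189 and 142 CPM in DMSO WT. Treated libraries lay below all DMSO libraries in Atg5-/- cells, as for 9.73% of genes tested, and above them in WT cells, as for 19.3%. The fall in Atg5-/- cells was called (-0.76, SE 0.20, adjusted p = 0.0422), the value in WT cells was 0.52 (adjusted p = 0.0817), and the interaction was -1.27 (SE 0.28, adjusted p = 0.0143). Under bortezomib Shmt2 was lower in Atg5-/- than in WT cells (-1.13, adjusted p = 0.000663). Shmt2 shares 32 exonic bases with Ndufa4l2, which had 0 counts in every library.

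Mthfd2 (ENSMUSG00000005667.8, chromosome 6, 83305691 to 83325908), the dehydrogenase and cyclohydrolase of mitochondrial folate, is known for high expression in embryonic and dividing cells. It had 12.9, 6.84 and 12.4 CPM in bortezomib Atg5-/- libraries, 30.2, 22.9 and 6.14 CPM in DMSO Atg5-/-, 45.7, 42.5 and 34.2 CPM in bortezomib WT and 14.5, 13.4 and 17.3 CPM in DMSO WT. The DMSO Atg5-/- libraries spread widely, with replicate 3 as low as the treated ones. Bortezomib WT libraries were above all 9 others, as for 12.4% of genes tested. The largest rise among the 10 genes in WT cells was in Mthfd2 (1.44, SE 0.41, adjusted p = 0.0272), while in Atg5-/- cells it stood at -0.88 (95% interval -1.75 to -0.02, adjusted p = 0.285). It was lower in Atg5-/- than in WT cells under bortezomib (-1.93, adjusted p = 0.00254), and the interaction was -2.32 (SE 0.57, adjusted p = 0.0241).

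**Figure D2:**
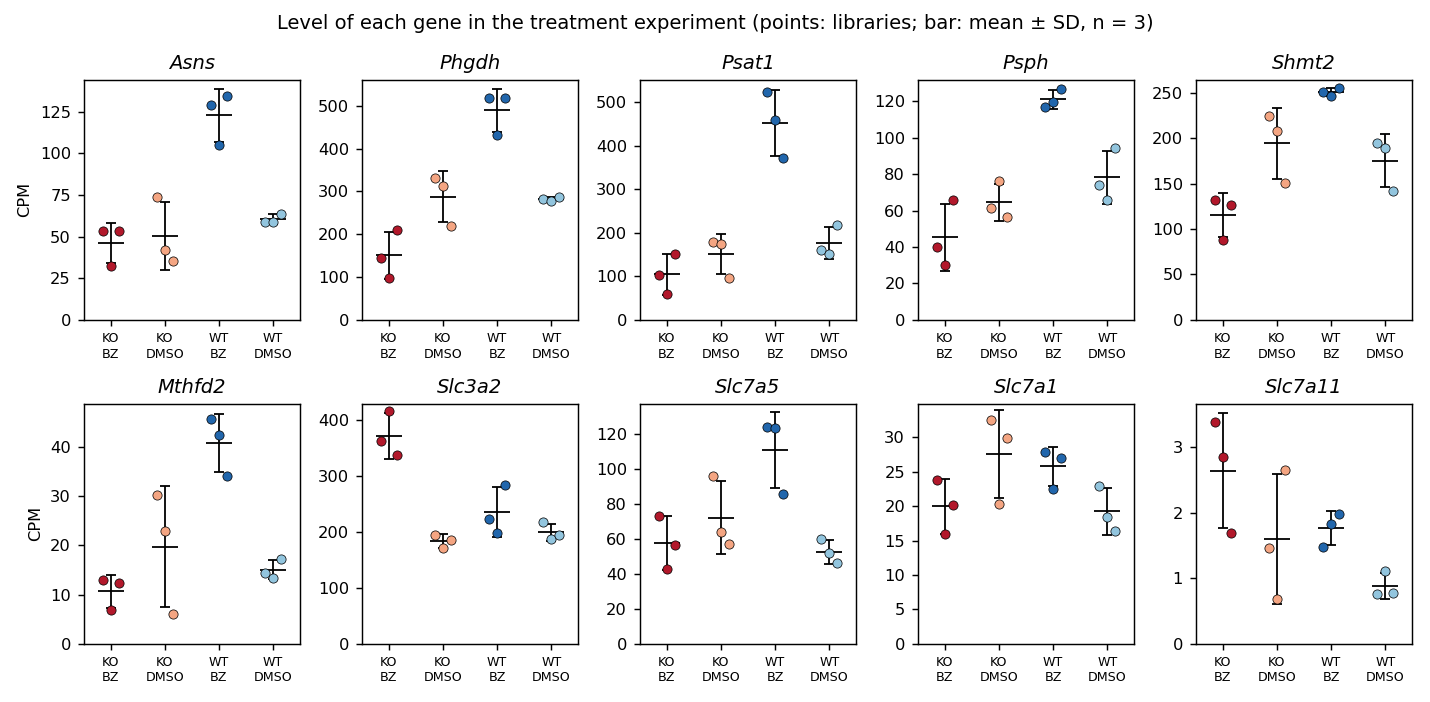
Level of each of the 10 genes in the treatment experiment in CPM (vertical axis), with 1 point per library and bars for the mean ± SD (n = 3); KO is the Atg5-/- label and BZ bortezomib. For the 6 biosynthetic genes the 3 bortezomib WT points are above every other library, as for 12.4% of genes tested, whereas for Slc3a2 the 3 bortezomib Atg5-/- points (338 to 417 CPM) are, as for 3.95%.

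Of the CD98 transporter, the heavy chain rose in Atg5-/- cells and the light chain Slc7a5 in WT cells. Slc3a2 (ENSMUSG00000010095.13, chromosome 19, 8706882 to 8723369) had 362, 417 and 338 CPM in bortezomib Atg5-/- libraries, 195, 171 and 187 CPM in DMSO Atg5-/-, 223, 198 and 285 CPM in bortezomib WT and 217, 188 and 194 CPM in DMSO WT. The bortezomib Atg5-/- libraries were the highest 3 of the 12, as for 3.95% of genes tested, and the other groups overlapped. It rose under bortezomib in Atg5-/- cells (1.01, SE 0.16, adjusted p = 0.00278), a call held in all 15 alternative analyses, and its change in WT cells was 0.23 (95% interval -0.11 to 0.58, adjusted p = 0.355). The 2 responses differed (interaction 0.78, SE 0.23, adjusted p = 0.0450), and under bortezomib Slc3a2 was higher in Atg5-/- than in WT cells (0.66, adjusted p = 0.00578).

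Slc7a5 (ENSMUSG00000040010.10, chromosome 8, 121881150 to 121907694), a light chain of Slc3a2, had 73.4, 42.8 and 56.8 CPM in bortezomib Atg5-/- libraries, 95.9, 63.8 and 57.3 CPM in DMSO Atg5-/-, 124, 123 and 85.9 CPM in bortezomib WT and 60.1, 51.9 and 46.5 CPM in DMSO WT. Treated WT libraries lay above DMSO WT libraries, as for 19.3% of genes tested, and the Atg5-/- groups overlapped. It rose in WT cells (1.07, SE 0.24, adjusted p = 0.00938), stood at -0.33 in Atg5-/- cells (95% interval -0.83 to 0.17, adjusted p = 0.551) and had an interaction of -1.40 (SE 0.33, adjusted p = 0.0205). Under bortezomib it was lower in Atg5-/- than in WT cells (-0.95, adjusted p = 0.00661). Per kilobase of exon, the ratio of Slc3a2 to Slc7a5 transcripts was 5.19, 10.2 and 6.24 in bortezomib Atg5-/- libraries, 2.14, 2.82 and 3.42 in DMSO Atg5-/-, 1.89, 1.68 and 3.48 in bortezomib WT and 3.80, 3.81 and 4.39 in DMSO WT. The ratio was highest in all 3 bortezomib Atg5-/- libraries and did not overlap any other group of this experiment, and it was below every DMSO WT value in all bortezomib WT libraries. It is given as a description of transcripts, with no test.

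The remaining 2 carriers were not called in any comparison. Slc7a1 (ENSMUSG00000041313.14, chromosome 5, 148327410 to 148399904), the arginine and lysine carrier, ranged from 15.9 to 23.8 CPM in bortezomib Atg5-/-, 20.4 to 32.5 CPM in DMSO Atg5-/-, 22.5 to 27.8 CPM in bortezomib WT and 16.4 to 22.9 CPM in DMSO WT. Its log2 fold change under bortezomib was -0.47 in Atg5-/- cells (adjusted p = 0.346) and 0.42 in WT cells (adjusted p = 0.246), with an interaction of -0.89 (95% interval -1.60 to -0.18, adjusted p = 0.107). Slc7a11 (ENSMUSG00000027737.10, chromosome 3, 49892526 to 50443614), the cystine carrier, was scarce, with 1.69 to 3.39 CPM in bortezomib Atg5-/- libraries, 0.682 to 2.66 CPM in DMSO Atg5-/-, 1.48 to 1.99 CPM in bortezomib WT and 0.763 to 1.11 CPM in DMSO WT. Its log2 fold changes under bortezomib were 0.73 in Atg5-/- cells (95% interval -0.57 to 2.03, adjusted p = 0.634) and 1.00 in WT cells (95% interval -0.32 to 2.32, adjusted p = 0.299), wide intervals at this depth.

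No difference between the genotypes in DMSO passed the threshold. Between Atg5-/- and WT cells in DMSO 0 of the 10 genes were called, where 0% of all genes were called by edgeR, and 1454 genes had an unadjusted p under 0.05. DESeq2 and limma voom also called 0 of the 10, while calling 157 and 114 of all genes. The median of the 10 was 0.09, against 0.000535 over all genes. Slc7a1 alone had an unadjusted p under 0.05, at 27.6 ± 6.37 CPM in Atg5-/- and 19.2 ± 3.36 CPM in WT libraries (0.52, adjusted p = 0.536). For Phgdh the difference was 0.03, with a 95% interval of -0.45 to 0.51.

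The calls differed in how far they rested on single libraries. The 8 calls between genotypes under bortezomib held in all 15 alternative analyses each, with adjusted p of at most 0.0391. The 5 rises in WT cells were fewer with some libraries left out: 0 were called without bortezomib WT 1, 1 without DMSO WT 2, 2 without DMSO WT 1 and 3 without bortezomib WT 2, with adjusted p of 0.0504 to 0.108 for the lost calls, and without bortezomib WT 3 Phgdh was lost (adjusted p = 0.0691). In Atg5-/- cells the falls of Phgdh and Shmt2 were both lost without DMSO Atg5-/- 1, DMSO Atg5-/- 2, bortezomib Atg5-/- 1 or bortezomib Atg5-/- 2 (adjusted p = 0.0554 to 0.180) and when the WT libraries were left out of the fit (0.108 and 0.115). Interaction calls numbered 2 without DMSO WT 2, bortezomib WT 1 or DMSO Atg5-/- 2, 3 without bortezomib WT 2, DMSO Atg5-/- 1 or bortezomib Atg5-/- 2, and 4 without DMSO WT 1. The interactions of Psph and Slc3a2 were lost in 10 and 11 of 20 alternatives, with adjusted p up to 0.170 and 0.146, also without bortezomib WT 3 (Psph, 0.0690), bortezomib Atg5-/- 1 (Psph, 0.106, and Slc3a2, 0.0764) and DMSO Atg5-/- 3 (Slc3a2, 0.0608). With the Xist share as a covariate 3 rises in WT cells were called, since Phgdh (adjusted p = 0.0535) and Mthfd2 (0.0517) were lost, the fall of Phgdh in Atg5-/- cells was lost (0.0639), and 2 interactions were called, Phgdh and Shmt2. When the 3 replicates numbered 3 that stood apart were left out, the counts were 6 in WT cells, 5 in Atg5-/- cells, 8 between genotypes under bortezomib and 8 in the interaction. No fold change of a called gene reversed its sign in these analyses.

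Other gene groups moved in the same libraries, among all genes of which 15.5% were called under bortezomib in WT cells, 3.63% in Atg5-/- cells and 32.4% between genotypes under bortezomib. Of 22 cell-cycle genes tested, 14 rose and 0 fell under bortezomib in WT cells, 0 rose and 4 fell in Atg5-/- cells, and 0 were higher and 17 lower in Atg5-/- than in WT cells under bortezomib. Their summed level was 1791 to 2812 CPM in bortezomib Atg5-/- libraries, 2534 to 4471 CPM in DMSO Atg5-/-, 4791 to 6572 CPM in bortezomib WT and 3210 to 3758 CPM in DMSO WT. Of 12 HSC markers 10 fell under bortezomib in WT cells and 1 in Atg5-/- cells, with sums of 3332 to 3811 CPM in bortezomib Atg5-/-, 3668 to 4443 CPM in DMSO Atg5-/-, 2400 to 2756 CPM in bortezomib WT and 3851 to 4351 CPM in DMSO WT libraries. Cd48, whose protein the sort excluded, ranged from 3.57 to 14.4 CPM in bortezomib Atg5-/- libraries, 13.8 to 20.1 CPM in DMSO Atg5-/-, 30.2 to 54.3 CPM in bortezomib WT and 9.99 to 12.4 CPM in DMSO WT. Of 9 erythroid markers tested 2 rose (Hbb-bt and Epor) and 1 fell under bortezomib in WT cells, and the sum of the 11 on the list was 59.5 to 82.3 CPM in bortezomib Atg5-/-, 97.6 to 227 CPM in DMSO Atg5-/-, 195 to 226 CPM in bortezomib WT and 73.2 to 98.6 CPM in DMSO WT, with the defining gene Slc4a1 under 1 CPM in all. Of 11 T and NK cell markers 3 were tested and Nkg7 rose in WT cells. That list summed to 49.5 to 129 CPM in bortezomib Atg5-/-, 84.6 to 142 CPM in DMSO Atg5-/-, 148 to 219.8 CPM in bortezomib WT and 87.0 to 92.7 CPM in DMSO WT, while the defining genes Cd3e, Cd3g, Cd8a and Ncr1 were at 0 in all 12 libraries. The sum of 10 endothelial and stromal markers ran the other way, at 132 to 175 CPM in bortezomib Atg5-/-, 98.1 to 171 CPM in DMSO Atg5-/-, 47.1 to 75.4 CPM in bortezomib WT and 81.9 to 125 CPM in DMSO WT libraries, with Cdh5, Col1a1, Dcn and Lepr under 1 CPM. Of 10 monocyte and macrophage markers tested, Cd68 rose under bortezomib in WT cells (1.34, adjusted p = 0.00193) and Cd68 and Cd14 in Atg5-/- cells (0.88 and 2.86, adjusted p = 0.0153 and 0.0113). Under bortezomib 4 of them, C1qa, C1qb, C1qc and Adgre1, were lower in Atg5-/- than in WT cells (-1.46 to -2.59). The sum of the 11 on that list was 286 to 666 CPM in bortezomib Atg5-/-, 486 to 610 CPM in DMSO Atg5-/-, 628 to 866 CPM in bortezomib WT and 690 to 925 CPM in DMSO WT libraries, with Ly6c2 under 1 CPM in all. Of 9 megakaryocyte markers tested, 3 were higher and 3 lower in Atg5-/- than in WT cells under bortezomib, of 8 progenitor markers 2 and 1, and of 9 neutrophil markers 0 and 1. The part of the cell cycle and of these markers in the results for the 10 genes was not tested.

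Enzymes of neighbouring amino-acid and folate pathways were mostly lower in Atg5-/- than in WT cells under bortezomib where they were called. Of 38 tested, 6 rose and 3 fell under bortezomib in WT cells, 0 rose and 2 fell in Atg5-/- cells, and 4 were higher and 18 lower in Atg5-/- than in WT cells under bortezomib, with a median of -0.61, where 17.2% of all genes were higher and 15.3% lower. Under bortezomib 7.97% of all genes rose and 7.56% fell in WT cells, and 2.02% rose and 1.61% fell in Atg5-/- cells. Tyms, thymidylate synthase, had 56.7 ± 16.1 CPM in bortezomib Atg5-/- and 308 ± 58.3 CPM in bortezomib WT libraries (-2.44, adjusted p = 0.000117). Shmt1, the cytosolic counterpart of Shmt2, was lower as well (-1.88, adjusted p = 0.000261). In WT cells bortezomib raised Odc1, the first enzyme of polyamine synthesis (1.19, adjusted p = 0.00632), and Tyms (1.17, adjusted p = 0.0131) and lowered Srr, serine racemase (-1.23, adjusted p = 0.0127). Among Atg5-/- cells the purine enzymes Atic (-0.84, adjusted p = 0.0242) and Gart (-0.81, adjusted p = 0.0364) fell. In the interaction 1 was higher and 9 were lower, led by Tyms (-2.08, adjusted p = 0.00909), Gart (-1.38, adjusted p = 0.0119) and Shmt1 (-1.84, adjusted p = 0.0124). Among all genes 4.35% were higher and 4.71% lower there. Tyms is also one of the cell-cycle genes counted above.

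Carriers other than the members were called in both directions, and about as often as genes in general between genotypes under bortezomib. Of 34 tested, 2 rose and 1 fell in WT cells, 2 rose and 0 fell in Atg5-/- cells, 7 were higher and 5 lower in Atg5-/- than in WT cells under bortezomib, and 1 was higher and 2 lower in the interaction. Among all genes 15.5%, 3.63%, 32.4% and 9.05% were called in these 4 comparisons. Slc7a8, another light chain that pairs with Slc3a2, had 63.8 ± 11.3 CPM in bortezomib Atg5-/- and 27.7 ± 7.52 CPM in bortezomib WT libraries (1.21, adjusted p = 0.000604; interaction 0.96, adjusted p = 0.0498), a direction opposite to that of Slc7a5. Slc25a15, the mitochondrial ornithine carrier, rose in WT cells (0.71, adjusted p = 0.0313) and was lower in Atg5-/- than in WT cells under bortezomib (-1.49, adjusted p = 0.000221; interaction -1.39, adjusted p = 0.0136). Slc25a13, the mitochondrial aspartate-glutamate carrier, rose in WT cells (0.66, adjusted p = 0.0174). Sfxn1, a mitochondrial serine carrier, had an interaction of -1.02 (adjusted p = 0.0322). Slc38a9, a lysosomal arginine sensor, fell in WT cells (-1.05, adjusted p = 0.00827) and was higher in Atg5-/- than in WT cells under bortezomib (1.30, adjusted p = 0.000618). With bortezomib in Atg5-/- cells, Slc43a3, known in human cells as a purine nucleobase carrier, rose (0.81, adjusted p = 0.0360), and Slc38a4 averaged 3.41 ± 1.88 CPM with bortezomib and 0 CPM in all 3 DMSO libraries (adjusted p = 0.0266).

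Of 20 cytosolic aminoacyl-tRNA synthetases, which charge tRNAs with amino acids, 3 rose and 0 fell in WT cells. Among all genes 7.97% rose and 7.56% fell, 15.5% in either direction. The 3 were Mars (1.23, adjusted p = 0.00843), Gars (0.78, adjusted p = 0.0281) and Dars (0.68, adjusted p = 0.0446). Under bortezomib 0 were called by edgeR in Atg5-/- cells. Between genotypes under bortezomib 0 were higher and 6 lower, where 17.2% of all genes were higher and 15.3% lower, 32.4% in either direction. In WT cells and between genotypes the total called was near that of genes in general. All calls within each ran the same way, a larger share than that of genes called in that direction. The direction of these calls was not tested against that of genes in general. The 6 include Dars (-1.16, adjusted p = 0.00108), Mars (-1.30, adjusted p = 0.00176) and Gars (-1.02, adjusted p = 0.00291). Mars (-1.52, adjusted p = 0.0223) and Gars (-1.10, adjusted p = 0.0413) were lower in the interaction, as were 4.71% of all genes.

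Of 22 regulators and other targets of the ATF4 arm, 0 rose and 4 fell under bortezomib in WT cells. Among all genes 7.97% rose and 7.56% fell, 15.5% in either direction. The total called was near that of genes in general, but all 4 were falls, a larger share than that of genes falling. This difference in direction was not tested. Atf4 transcripts averaged 83.5 ± 37.7 CPM in bortezomib Atg5-/-, 44.1 ± 9.43 CPM in DMSO Atg5-/-, 69.9 ± 2.09 CPM in bortezomib WT and 64.0 ± 7.18 CPM in DMSO WT, and were not called in any comparison (adjusted p = 0.0662 for bortezomib in Atg5-/- cells and 0.786 in WT cells). ATF4 is controlled in large part by translation, which these data do not measure. Those of the 4 with the smallest p were Ppp1r15a, the phosphatase subunit that reverses eIF2α phosphorylation (-1.63, adjusted p = 0.00361), the pseudokinase gene Trib3 (-1.21, adjusted p = 0.00691) and Ddit3, which encodes CHOP (-1.52, adjusted p = 0.0110). In Atg5-/- cells 1 rose, the stress-induced chromatin protein gene Nupr1 (1.31, adjusted p = 0.0190), and 0 fell, where 2.02% of all genes rose and 1.61% fell. Under bortezomib 9 were higher and 2 lower in Atg5-/- than in WT cells, where 17.2% of all genes were higher and 15.3% lower, with Ppp1r15a at 95.1 ± 42.8 against 20.2 ± 2.43 CPM (2.23, adjusted p = 0.000135), Ddit3 at 19.0 ± 9.12 against 6.18 ± 0.338 CPM (1.62, adjusted p = 0.00260) and Trib3 at 44.9 ± 6.67 against 20.5 ± 5.37 CPM (1.13, adjusted p = 0.00289). In the interaction 3 were higher and 0 lower: Ppp1r15a (2.61, adjusted p = 0.00384), Ddit3 (2.01, adjusted p = 0.0216) and Nupr1 (1.40, adjusted p = 0.0431). Of all genes 4.35% were higher and 4.71% lower in it.

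**Figure D3:**
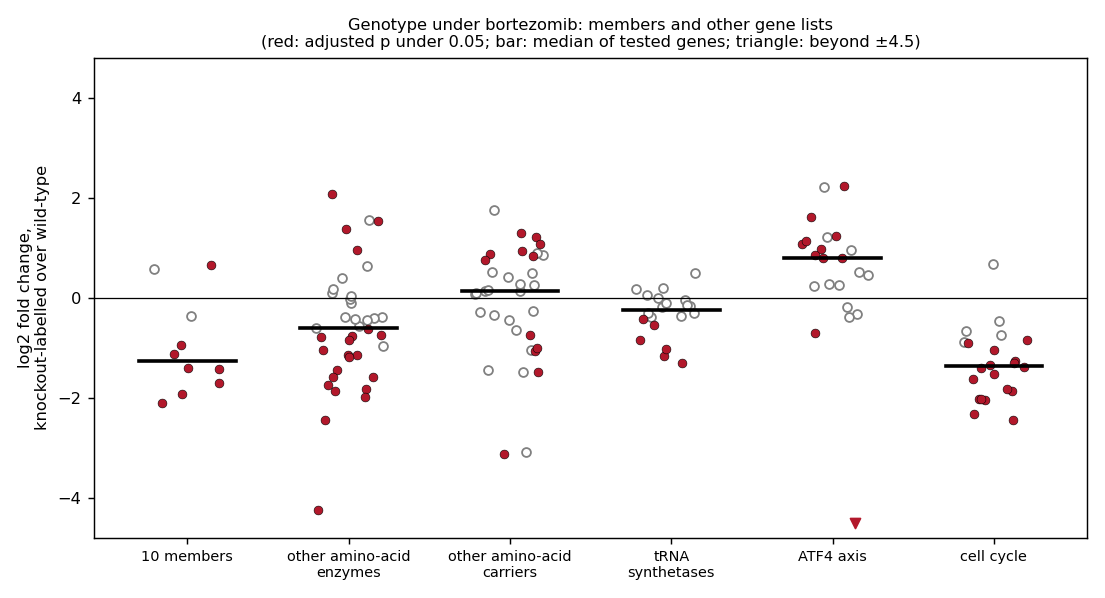
Log2 fold change of Atg5-/- (knockout-labelled) over WT cells under bortezomib for the 10 genes and for the other gene lists, with 1 point per tested gene, red where the adjusted p is under 0.05, and a bar at the median. The 10 genes have a median of -1.27, the other enzymes -0.61, the carriers 0.13, the tRNA synthetases -0.24, the ATF4 arm 0.79 and the cell-cycle genes -1.36.

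Across the 12 libraries of the treatment experiment, the 6 biosynthetic genes tracked each other, as a description without a test over libraries that share group differences. Pearson's r of log2 CPM was 0.95 between Phgdh and Psph, 0.93 between Phgdh and Psat1 and 0.92 between Asns and Psat1, and it was -0.61 between Phgdh and Slc3a2. Among pairs of the 6 it was lowest between Asns and Shmt2, at 0.77. The carrier gene Slc7a5, outside the 6, had an r with them of 0.58 (Psph) to 0.84 (Mthfd2). The 3 genes outside the set most like Asns were Stt3a (r = 0.98), a catalytic subunit of the oligosaccharyltransferase, Syncrip (0.97), an RNA-binding protein gene, and Ciapin1 (0.97), a factor of cytosolic iron-sulfur cluster assembly. Stt3a averaged 364 ± 53.3 CPM in bortezomib Atg5-/-, 368 ± 57.5 CPM in DMSO Atg5-/-, 538 ± 56.1 CPM in bortezomib WT and 386 ± 2.98 CPM in DMSO WT.

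No difference of the 10 genes between fluorescence classes of untreated reporter HSCs passed the threshold. None of the 10 was called by edgeR in RFP single positive against double positive, RFP single positive against double negative or double positive against double negative cells, where 0%, 0% and 0.0065% of 15375 genes were called and 209, 1160 and 1315 had an unadjusted p under 0.05. DESeq2 and limma voom called 0 of the 10 as well, and DESeq2 called 2, 19 and 47 of all genes. At an unadjusted p under 0.05 there were 0, 0 and 2 of the 10, the 2 being Asns and Psat1, both lower in double positive than in double negative cells. Asns had 75.3, 72.9 and 88.1 CPM in RFP single positive libraries, 62.9, 58.3 and 60.3 CPM in double positive and 72.5, 128 and 75.1 CPM in double negative libraries. Double positive libraries were below all others, and double negative 2 was far above the rest. Groups also did not overlap for Mthfd2, higher in RFP single positive (18.0 to 21.3 CPM) than in double positive libraries (5.77 to 15.5 CPM), and for Phgdh, lower in double positive (305 to 370.4 CPM) than in double negative libraries (374 to 455.5 CPM). All RFP single positive libraries lay above all double positive ones for 3.84% of genes tested. Below all double negative libraries lay all RFP single positive ones for 5.52% and all double positive ones for 4.94% of genes tested. For Asns the difference between double positive and double negative was -0.60 (SE 0.23, adjusted p = 0.558). Psat1 had 229.5, 218 and 209.9 CPM in RFP single positive, 229.6, 167 and 166 CPM in double positive and 292, 341 and 215 CPM in double negative libraries, and the groups overlapped (-0.59, adjusted p = 0.555). Double negative libraries also spread most for Slc7a5, with 22.8, 80.4 and 75.0 CPM, and for Mthfd2, with 6.91, 31.5 and 14.6 CPM. Double negative 1, the lowest of the 3 for both genes, stood apart from the other reporter libraries on the first principal component (22.6% of the variance), and Kit ranged from 214 to 890 CPM in double negative libraries. Their part in this spread was not tested, and 0 of the 10 genes were called with any reporter library left out. Slc3a2 ranged from 176 to 228.2 CPM in RFP single positive and 162 to 222 CPM in double positive libraries. In double negative libraries it ranged from 228.2 to 255 CPM. Neither positive class overlapped double negative (-0.23, adjusted p = 0.738, and -0.35, adjusted p = 0.607). The gap between RFP single positive and double negative was smaller than the rounding of 228.2 CPM. Double negative libraries had a T and NK marker sum of 140 to 203 CPM. It was 76.9 to 131 CPM in RFP single positive and 76.8 to 98.7 CPM in double positive cells. Nkg7 made up most of it, at 122.9 to 190.6 CPM in double negative libraries. In RFP single positive libraries Nkg7 had 58.5 to 122.4 CPM and in double positive 55.5 to 84.2 CPM. The defining genes Cd3e, Cd3g, Cd8a and Ncr1 were at 0 in all reporter libraries. The part of this marker sum in the values of the 10 genes was not tested.

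**Figure D4:**
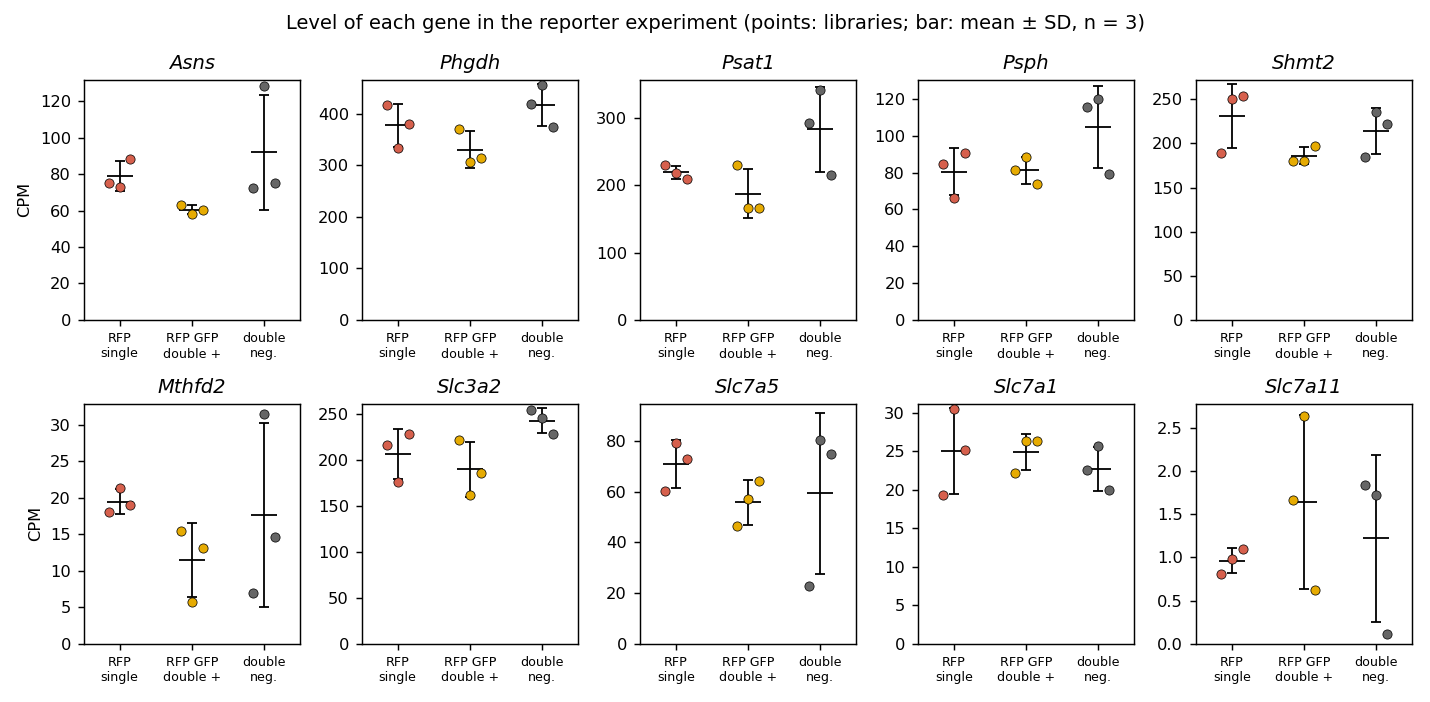
Level of each of the 10 genes in untreated reporter HSCs in CPM (vertical axis), with 1 point per library and bars for the mean ± SD (n = 3), in RFP single positive, double positive (RFP GFP) and double negative cells. No difference between classes passed the threshold, and the double negative libraries spread most for Asns, Mthfd2 and Slc7a5.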

How the data were processed

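The authors deposited raw counts per gene for 21 libraries. Per the submitters' processing notes, Bowtie 1.0.0, STAR 2.6.1 and HTSeq 0.7.1 were used with builds GRCm38.p4 and GRCh38, and neither annotation release nor strand setting is given in the sources used here. The count table held 47729 genes and 0 columns without a sample. No library was left out, and no pair of replicates agreed within sampling noise (lowest chi-square per degree of freedom 11.9).

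In R 4.3.3, edgeR 4.0.16 was fitted once per experiment with a mean per group, TMM scaling and filterByExpr, leaving 16149 genes (treatment) and 15375 (reporter). All 10 genes passed that filter. Adjusted p-values are Benjamini-Hochberg over all genes tested, in 8 comparisons. CPM uses TMM-scaled library sizes, and levels per kb use GRCm38 exon lengths of GENCODE M21. Correlations use log2 CPM with a prior count of 2. Promoters are RefSeq GRCm38.p6.

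The members and all gene lists were chosen with earlier results of these data known. From each list of other genes, up to 3 called genes with the smallest p per comparison are named, and Atf4 always. Of the genes this rule gives, 1 is not reported here. Alternatives were relative log expression factors, DESeq2 1.42.0, limma 3.58.1 voom with sample quality weights, no filter, only the libraries of compared groups, a block for the replicate number, the Xist share as a covariate, leaving out each library, leaving out the 3 apart on the third component, and, added after seeing the data, offsets from splines (4 degrees of freedom) on transcript length and GC content (98.9% of genes had both). The procedure was tested on simulated data. Of genes changed 2-fold there, 12% were called in the interaction and 24% to 29% in the reporter comparisons. In the other 4 treatment comparisons 41% to 56% were called, so changes of this size can be missed. Fewer genes were changed there than were called in each real comparison that involves bortezomib. The shares called may therefore differ in the real data. Figures used matplotlib 3.10.9 in Python 3.11.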

Additional observations from a re-analysis of the deposited data

Results flagged for a closer look

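For 7 of the 10 genes the response to bortezomib differed between the genotypes by a test of the difference itself, the edgeR interaction over 16149 genes. The difference is the log2 fold change of bortezomib over DMSO in Atg5-/- minus that in WT cells. It was -1.73 for Phgdh (adjusted p = 0.00882), -1.88 for Psat1 (0.0155), -1.14 for Psph (0.0453), -1.27 for Shmt2 (0.0143), -2.32 for Mthfd2 (0.0241) and -1.40 for Slc7a5 (0.0205), so that each of these biosynthetic and carrier genes had the lower response in Atg5-/- cells. For Slc3a2 it was 0.78 (0.0450), the higher response in Atg5-/- cells. Of the 7 calls, 2 remained with the Xist share as a covariate and 2 without DMSO WT 2, bortezomib WT 1 or DMSO Atg5-/- 2. Those of Psph and Slc3a2 were lost in 10 and 11 of 20 alternatives, and that of Phgdh was kept in all 20.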

How the results depend on the processing

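The 23 calls of single genes gave 380 values under the alternatives, of which 312 kept the call, 68 lost it and 0 changed sign. All 8 calls between genotypes under bortezomib, Slc3a2 under bortezomib in Atg5-/- cells and the interaction of Phgdh were kept throughout, 10 of the 23. The number of genes called under bortezomib in WT cells, 5, was 3 with the Xist share as a covariate and 8 with length and GC offsets (Psph, Shmt2 and Slc7a1 added, at adjusted p = 0.0424, 0.0190 and 0.0369), and 0 to 5 with 1 library left out. In Atg5-/- cells the 3 calls became 5 with limma voom, 5 when the 3 libraries apart on the third component were left out and 1 with only the groups compared, and 1 to 4 with 1 library left out. Between genotypes under bortezomib the count was 8 to 9, and 8 in every leave-one-out analysis. The interaction gave 2 with the Xist share, up to 8 in the other analyses and 2 to 8 with 1 library left out. Between genotypes in DMSO and in the reporter experiment the count was 0 in every analysis. Only length and GC offsets, among the scalings, moved the median of all genes by over 0.1, from -0.04 to 0.06 under bortezomib in WT cells, 0.08 to -0.05 between genotypes under bortezomib, 0.06 to -0.06 in the interaction and 0.02 to -0.12 in RFP single positive against double negative cells.

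With the replicate number as a block, the counts were 5, 3, 0, 8 and 8 in the 5 treatment comparisons and 0 in the reporter ones. Deviations of same-numbered libraries correlated at -0.0282 to 0.200 in the treatment and -0.0143 to 0.165 in the reporter experiment, so the condition that every same-numbered pair exceed 0.1 was not met. As a hint from the data and not from the design, 8 of 12 and 8 of 9 libraries correlated best with their own number, with a median r in the reporter experiment of 0.0927 for same-numbered and -0.034 for other pairs, and the Xist share there was high in all 3 libraries numbered 2 (88.1% to 99.9%) and at most 10.2% in the others. Depth limits Slc7a11 above all, which in double negative 3 was at 0.111 CPM, under the level of 3 counts.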
